A study of Mus musculus with 4 samples.

Results

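Tspan6, Cftr, Jmjd8, Adgrg1 and Gabra5 were 5 of the 22180 genes with a value on arrays of P19, an embryonal carcinoma line of the mouse whose cells differentiate in retinoic acid. They were chosen by name, as genes that were far from wild type in a Ctcfl-overexpressing line both before and after differentiation. All 5 were past the filter on low signals (log2 6 or more on at least 1 array), as were 18310 genes in all. The choice rests on the differences between the lines, so these are described below without a test. An additive limma fit called 8 of the 18310 genes (0.0437%) for the line, 5 of them higher (0.0273%) and 3 lower (0.0164%). The 5 genes are among the 8, which follows from how they were chosen and is no support for them; the others are Ctcfl, Grb10 and Tex16. The count depended on the setting, with 14 higher and 9 lower after quantile normalization, 9 and 6 with a trended prior, and 2 and 1 with a floor at log2 6, which left 1 of the 5 genes, Tspan6.

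The tested line was a P19 clone with the stable integrates pBI-EGFP-FLAG-mCtcfl and pTA-N, in which doxycycline represses the Ctcfl transgene (Tet-Off). It had been without doxycycline for 2 days, and was measured after vehicle (ethanol) and after 4 days in 10 µM retinoic acid. Wild-type P19 cells carried no integrate and had the same 2 treatments. The sample characteristics give them 2 µg/ml doxycycline, whereas the growth description gives plain medium with serum. Each of the 4 conditions had 1 array, so there is no replicate and every difference is a difference between single arrays. A difference between the lines covers the transgene, the vectors, the origin of the clone and any effect of doxycycline, which cannot be told apart.

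The 5 genes have unrelated products. Tspan6 encodes a tetraspanin, a family of membrane proteins that organise other membrane proteins into domains, and human TSPAN6 dampens RIG-I and MAVS signalling. Cftr encodes a chloride and bicarbonate channel of epithelia, the member of the ABCC transporter family that works as an ion channel. Jmjd8 encodes a protein of the endoplasmic reticulum with a JmjC domain, the fold shared by many histone demethylases, and human JMJD8 promotes TNF signalling to NF-kappaB. Adgrg1, also called Gpr56, encodes an adhesion G protein-coupled receptor that guides cortical development, binds collagen III and signals through Gna12 and Gna13 to RhoA. Gabra5 encodes a subunit of GABA-A receptors, the chloride channels opened by the transmitter GABA, and is best known from the hippocampus.

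The genes lie on 5 chromosomes, X for Tspan6, 6 for Cftr, 17 for Jmjd8, 8 for Adgrg1 and 7 for Gabra5 (RefSeq, GRCm38.p6). The RefSeq table held 6 promoter windows of 300 bases for the 5 genes, each from 250 bases before to 50 after a start site. The windows of Cftr and Jmjd8 span the start of the gene's full RefSeq span. Those of Tspan6, Adgrg1 and Gabra5 lie inside the gene. On their strands these genes begin at chrX:133901208, chr8:94974756 and chr7:57591016, positions that were not searched. One window per gene is shown, 5′ to 3′ on the gene's strand, since these are the regions at which genes that differ together between the lines can be set side by side. Capitals mark matches, on either strand, to the core of the motif that Ctcf and Ctcfl share, to a short form of its end, to the GC box or to the TATA box, whose letters are given below.
Tspan6, chrX:133898380-133898679, minus strand: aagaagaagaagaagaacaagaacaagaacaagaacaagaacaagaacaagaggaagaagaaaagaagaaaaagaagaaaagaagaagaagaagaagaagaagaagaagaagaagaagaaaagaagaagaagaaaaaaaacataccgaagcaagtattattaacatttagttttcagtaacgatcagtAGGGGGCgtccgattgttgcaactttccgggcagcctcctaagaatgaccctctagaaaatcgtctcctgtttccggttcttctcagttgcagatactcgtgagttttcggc
Cftr, chr6:18170437-18170736, plus strand: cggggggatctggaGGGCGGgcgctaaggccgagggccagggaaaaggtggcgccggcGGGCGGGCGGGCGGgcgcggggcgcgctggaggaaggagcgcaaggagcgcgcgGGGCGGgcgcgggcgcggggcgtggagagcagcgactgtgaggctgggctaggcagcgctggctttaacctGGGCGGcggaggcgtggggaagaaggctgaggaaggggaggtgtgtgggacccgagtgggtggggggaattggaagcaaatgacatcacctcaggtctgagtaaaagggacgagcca
Jmjd8, chr17:25828793-25829092, plus strand: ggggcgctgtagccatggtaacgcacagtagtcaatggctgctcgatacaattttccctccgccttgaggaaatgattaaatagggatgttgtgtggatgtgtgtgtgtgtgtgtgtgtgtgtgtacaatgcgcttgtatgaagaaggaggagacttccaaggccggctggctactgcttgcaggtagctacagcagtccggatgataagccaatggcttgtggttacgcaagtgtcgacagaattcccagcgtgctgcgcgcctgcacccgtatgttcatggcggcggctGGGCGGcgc
Adgrg1, chr8:94976859-94977158, plus strand: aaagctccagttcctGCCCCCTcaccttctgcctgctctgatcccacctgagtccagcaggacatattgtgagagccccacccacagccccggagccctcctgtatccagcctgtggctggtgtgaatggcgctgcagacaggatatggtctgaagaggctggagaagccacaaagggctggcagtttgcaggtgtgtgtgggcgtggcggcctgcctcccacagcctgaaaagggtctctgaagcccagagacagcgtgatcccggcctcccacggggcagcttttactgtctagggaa
Gabra5, chr7:57510010-57510309, minus strand: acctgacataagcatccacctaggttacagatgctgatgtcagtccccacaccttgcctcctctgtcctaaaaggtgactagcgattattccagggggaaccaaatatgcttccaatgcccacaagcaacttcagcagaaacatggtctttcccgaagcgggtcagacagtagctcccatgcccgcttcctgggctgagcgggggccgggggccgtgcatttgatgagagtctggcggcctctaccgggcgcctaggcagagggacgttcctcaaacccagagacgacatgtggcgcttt

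None of the 6 windows held the Ctcf core, against 3.43% of the 32851 promoter windows in the table. The shorter form, AGGGGGC, was added after the sequences had been seen. It lies once in the Tspan6 window, from -62 relative to the start, and once on the opposite strand in the Adgrg1 window shown, from -235, and 10.6% of all windows hold it. The Cftr window held 6 GC boxes (GGGCGG) and the Jmjd8 window 1, while the windows of Tspan6, Adgrg1 and Gabra5 held 0; 35.7% of all windows hold at least 1. The TATA box, TATAAA, was in none of the 6 windows and in 13.6% of all. No match in these 6 windows overlapped a match to another motif. The windows of the genes that were lower in the Ctcfl line had observed over expected CpG ratios of 0.864 (Tspan6), 1.01 (Cftr) and 0.797 (Jmjd8). Those of the genes that were higher had 0.254 and 0.222 at the 2 starts of Adgrg1 and 0.541 at Gabra5, beside a median of 0.384 over all windows. Gabra5 was thus above the median, as were the 3 lower genes. Whether the ratio goes with the direction of the line difference was not tested. A match is a run of letters and not a measured binding site.

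The transgene was checked first. Ctcfl, the testis paralog of the insulator protein Ctcf, had log2 signals of 10.41 in the undifferentiated Ctcfl line against 7.86 in undifferentiated wild-type cells, and of 9.56 against 7.13 in retinoic acid. Whether its probe set measures transcripts of the transgene or of the cells' own gene is not given in the sources used here. Of the pluripotency markers of embryonal carcinoma cells 8 of 8, Pou5f1, Nanog and Sox2 among them, were at or above log2 6 on every array. In retinoic acid Tdgf1 (6.76 in the Ctcfl line and 6.09 in wild type) was below the olfactory 95th percentile described below. The mean signals of the 8 markers were 9.03 in retinoic acid against 11.29 in undifferentiated cells in the Ctcfl line, and 8.74 against 10.78 in wild type. The markers of other cell types were 6 of stroma, 6 of primitive endoderm, 6 neural (Sox1, Pax6, Nes, Tubb3, Dcx and Map2) and 4 of blood. Their mean log2 signals in retinoic acid were 8.66 against 8.68 for stroma and 8.11 against 8.84 for endoderm (Ctcfl line against wild type). For the neural markers the means were 8.70 against 8.61, and for blood 6.28 against 6.57. In undifferentiated cells the means were 8.53 against 8.79 for stroma and 7.59 against 7.63 for endoderm. They were 7.69 against 7.75 for the neural markers and 6.67 against 6.64 for blood. Ptprc, the defining marker of blood, was below log2 6 on every array. The part of these cell types in the differences below was not tested. Array medians lay between 6.95 and 6.96. As a guide to background, the 1105 olfactory receptor genes had medians between 4.68 and 4.78 and 95th percentiles between 6.82 and 6.95 on the arrays. Of these genes 242 were past the filter, so passing it does not by itself show expression.

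**Figure D1:**
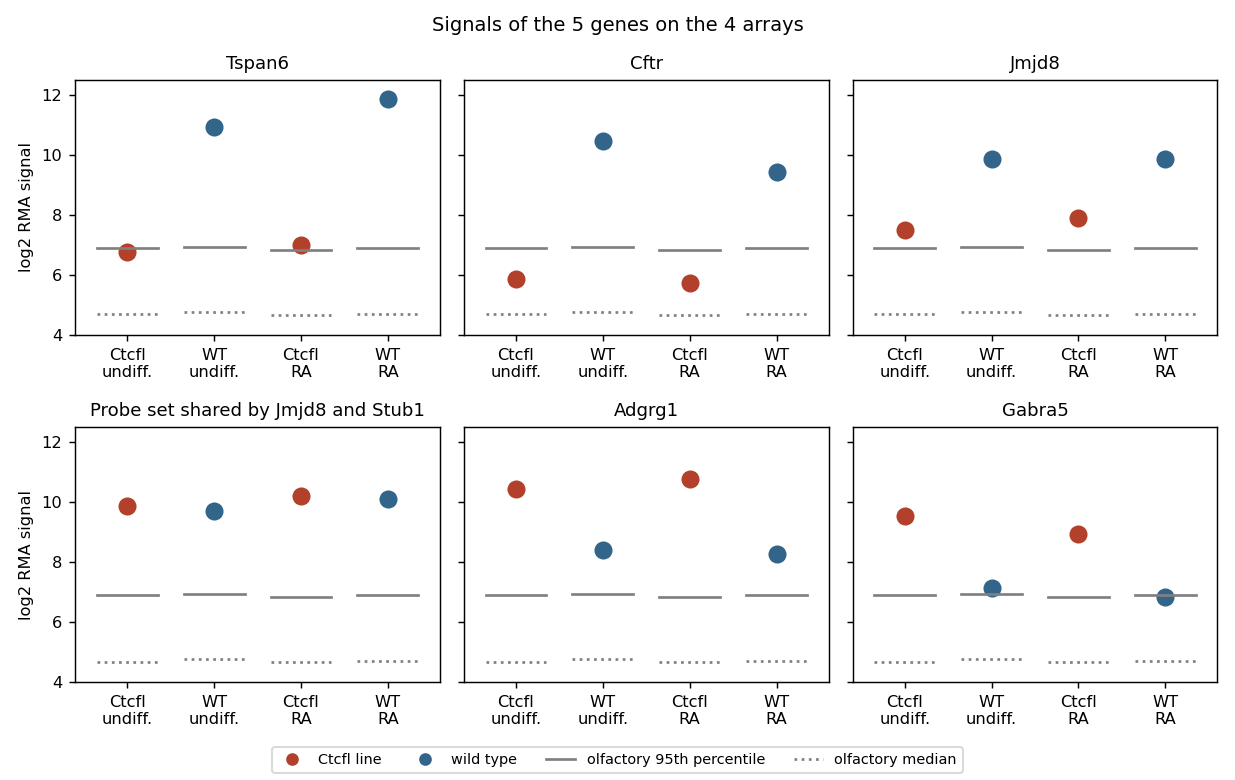
Log2 RMA signal (y axis) of the 5 genes, and of a probe set that Jmjd8 shares with Stub1, on each of the 4 arrays (x axis, WT is wild type, RA is retinoic acid), with the olfactory receptor median and 95th percentile of each array as lines. Tspan6, Cftr and Jmjd8 are lower in the Ctcfl line in both states and Adgrg1 and Gabra5 are higher, while the shared probe set is nearly level.

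Of the membrane proteins, Tspan6 had a log2 signal of 6.78 in undifferentiated Ctcfl-line cells, against 10.93 in undifferentiated wild-type cells. In retinoic acid it had 6.98 in the Ctcfl line, against 11.85 in wild type. Both arrays of the Ctcfl line were far below both wild-type arrays. As the RNA came from whole cultures, fewer cells with a transcript and less of it per cell cannot be told apart, here or below. The first signal of the Ctcfl line is under the olfactory 95th percentile of its array (6.91) and the second just over it (6.82), so that the line had a Tspan6 signal near background in both states. With signals below that limit set to it, Tspan6 was at least 16.2-fold lower in undifferentiated cells, and as measured it was 29.2-fold lower in retinoic acid. As measured, the log2 differences were -4.15 in undifferentiated cells, the second lowest of the 18310 genes, and -4.87 in retinoic acid, the lowest.

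Cftr had log2 signals of 5.88 in undifferentiated Ctcfl-line cells and 5.74 in the line after retinoic acid. In wild type it had 10.46 undifferentiated and 9.44 after retinoic acid. Both signals of the Ctcfl line were below the olfactory 95th percentile and above 79.2% and 78.8% of the olfactory receptor genes, so Cftr could not be told from background there. It was thus at least 11.7-fold lower than wild type in undifferentiated cells and at least 6.15-fold lower in retinoic acid. As measured, its log2 differences of -4.58 and -3.70 were the lowest and the second lowest. In wild type the signal after retinoic acid was above 99.9% of the olfactory receptor genes.

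Jmjd8 had a log2 signal of 7.51 in the undifferentiated Ctcfl line against 9.87 in wild type. In retinoic acid the signals were 7.90 in the Ctcfl line and 9.85 in wild type. Unlike Tspan6 and Cftr, its lower signals were all above the olfactory 95th percentile, so its differences were measured on both sides. It was 5.14-fold lower in undifferentiated cells (log2 -2.36, the place 4 from the lowest) and 3.84-fold lower in retinoic acid (log2 -1.94, place 13).

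A second probe set annotated to Jmjd8 and to Stub1, the gene of a ubiquitin ligase, did not show this. Its log2 signals were 9.87 in the undifferentiated Ctcfl line against 9.69 in wild type, and 10.18 against 10.11 in retinoic acid. Its line differences of log2 0.18 and 0.07 were smaller than the spread between probe sets of the same gene, which had SDs of 0.262 and 0.226 in these comparisons (874 genes). Which bases either probe set reads, and so whether the shared one measures Jmjd8, Stub1 or both, is not given in the sources used here. The lower Jmjd8 signal therefore rests on 1 probe set. The other 4 genes also had 1 probe set each, with no shared one.

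Of the receptors, Adgrg1 had a log2 signal of 10.43 in the undifferentiated Ctcfl line against 8.41 in wild type. In retinoic acid it had 10.76 in the Ctcfl line against 8.27 in wild type. Both Ctcfl-line arrays were above both wild-type arrays, and all 4 signals were above the olfactory 95th percentile. In undifferentiated cells Adgrg1 was 4.07-fold higher, place 12 from the highest, and after retinoic acid 5.62-fold higher, place 5.

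Gabra5 had a log2 signal of 9.53 in the undifferentiated Ctcfl line against 7.15 in wild type. In retinoic acid it had 8.93 in the Ctcfl line against 6.85 in wild type. The wild-type signals lie close to the olfactory 95th percentile, above it in undifferentiated cells (6.95) and below it in retinoic acid (6.89). Gabra5 was 5.22-fold higher in undifferentiated cells and at least 4.11-fold higher in retinoic acid, with log2 differences of 2.38 and 2.08 that took the places 5 and 10 from the highest.

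**Figure D2:**
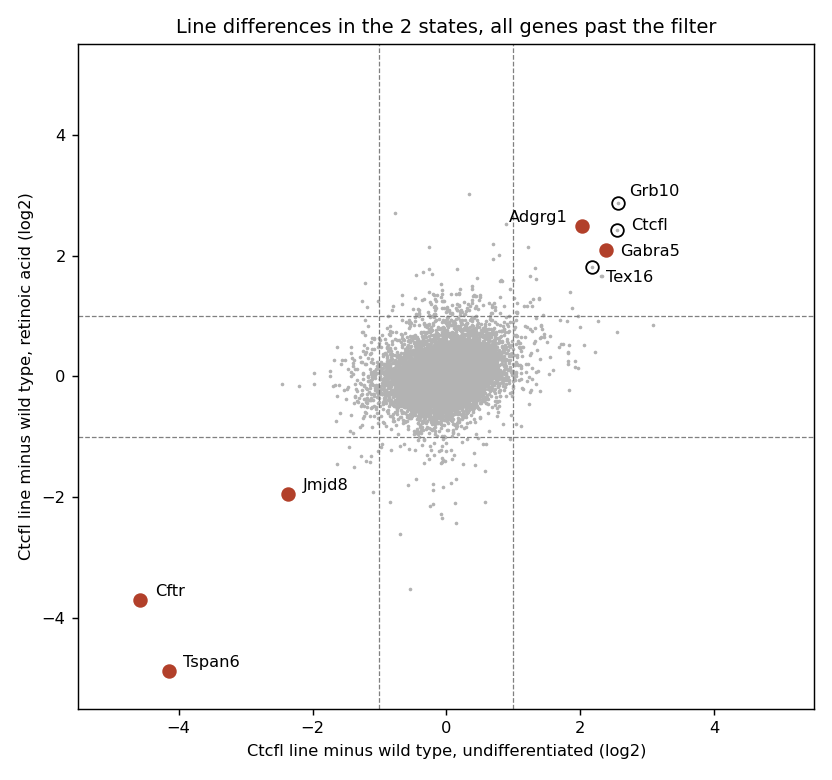
Log2 difference of the Ctcfl line minus wild type in undifferentiated cells (x axis) and in retinoic acid (y axis) for the 18310 genes past the filter, with 2-fold limits as dashed lines. The 5 genes (filled) and Ctcfl, Grb10 and Tex16 (open) lie far from most other genes, with Tspan6 and Cftr farthest from it.

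The same 5 genes were at least 2-fold apart in both states, which follows from how they were chosen. Over all genes, the share past 2-fold in the undifferentiated Ctcfl line was 0.726% upward and 1.09% downward (1.82% in all). In retinoic acid it was 0.83% upward and 0.399% downward (1.23% in all). In both states 26 genes were higher by that much (0.142%) and 12 lower (0.0655%). At 4-fold the same way in both states 6 genes remained (0.0328%), Tspan6, Cftr, Adgrg1, Gabra5, Ctcfl and Grb10. Jmjd8 was not among them, since its difference in retinoic acid was under log2 2. The sizes of the 5 genes' line differences were between 7.73 and 21.5 times the SD between probe sets of a gene. Large multiples follow from the choice of these genes and are no support for them. The SD is technical and says nothing of how much another culture or another clone would vary. At the edge of the fit's threshold, the mean line differences just inside were log2 -2.15 for Jmjd8 and 1.99 for Tex16. Just outside were 4933403O08Rik at 1.99 and Stmn2 at -1.55, named after their values were seen.

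The differences with retinoic acid were smaller than the line differences in each of the 5 genes, which their choice for large line differences makes likely. Tspan6 was 1.90-fold higher in retinoic acid than in undifferentiated cells in wild type (log2 0.93), and its log2 difference in the Ctcfl line was 0.20. Cftr was 2.02-fold lower in retinoic acid in wild type (log2 -1.02), against a log2 difference of -0.14 in the Ctcfl line. The Ctcfl-line signals of both genes are near the olfactory 95th percentile or below it, which limits how a response there can be measured.

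For the other 3 genes the log2 differences with retinoic acid were small in both lines. Jmjd8 differed by 0.39 in the Ctcfl line and -0.03 in wild type. Adgrg1 differed by 0.33 in the Ctcfl line and -0.14 in wild type. Gabra5 was lower in both, by -0.60 in the Ctcfl line and -0.30 in wild type. Of the 5 genes, 0 were at least 2-fold apart with retinoic acid in the Ctcfl line, where 4.71% of all genes were (3.21% higher, 1.5% lower). In wild type it was 1, Cftr, where 5.2% of all genes were (2.58% higher, 2.62% lower).

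The difference of the responses, which is also how far the line difference moved with differentiation, was log2 -0.72 for Tspan6 and 0.88 for Cftr as measured. With signals below the olfactory limit set to it these were -0.85 for Tspan6 and 0.93 for Cftr, and a floor at log2 6 gave 1.02 for Cftr. It was 0.42 for Jmjd8, 0.47 for Adgrg1 and -0.30 for Gabra5. For Jmjd8 and Adgrg1, whose 4 signals were all above that limit, it was 19.4% and 20.6% of the mean line difference. As measured 0 of the 5 reached 2-fold, and 1, Cftr, with the floor at log2 6, against 2.65% of all genes (1.9% upward, 0.754% downward). Since the choice favoured genes with like differences in both states, this likeness is no finding, and because the additive fit takes the same difference as its error no p is given for retinoic acid in these genes.

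**Figure D3:**
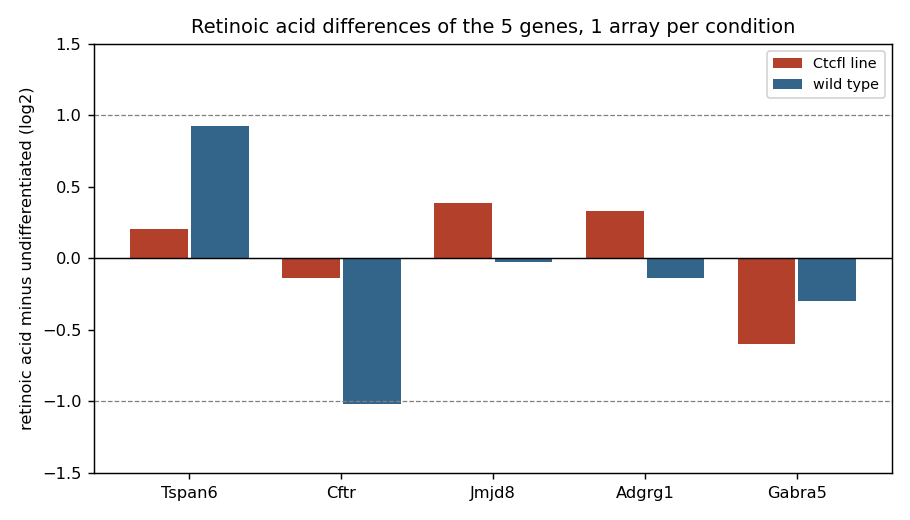
Log2 difference of retinoic acid minus undifferentiated (y axis) for each of the 5 genes in the Ctcfl line and in wild type, each bar from 2 single arrays, with 2-fold limits as dashed lines. Cftr in wild type reaches -1.02 and Tspan6 in wild type 0.93, while the other bars lie between -0.60 and 0.39.

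The families and known partners of the 5 genes were examined next, in 10 lists with 201 other genes past the filter. In the limma fit 0 of the 201 passed for the line (adjusted p under 0.05), beside 3 of all 18305 genes other than the 5. With so few calls, 0 in a list does not show that its genes were unchanged. At an unadjusted p under 0.05 there were 27 of the 201 and 1791 of all. In undifferentiated cells 1 of the 201 was at least 2-fold higher and 3 lower, against 0.726% and 1.09% of all genes. In retinoic acid 3 were at least 2-fold higher and 0 lower, against 0.83% and 0.399%. With retinoic acid 9 of the 201 rose and 7 fell, against 4.21% and 2.44% of all genes (6.65% together). Each member of a family that was chosen here lay outside the range of its other genes in both states, which the choice makes likely.

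Of 27 other tetraspanins, 0 passed for the line, and 3 had an unadjusted p under 0.05 in limma, as did 9.81% of all genes. In undifferentiated cells 2 of the 27 were at least 2-fold lower, Tspan17 among them, against 1.09% of all genes. In retinoic acid 0 were 2-fold apart, against 1.23%. Median line differences (log2) of the 27 were -0.19 undifferentiated and -0.09 in retinoic acid, beside -0.02 for all genes in both. Tspan17 was lower by log2 -1.64 in the undifferentiated Ctcfl line and higher by 0.48 in retinoic acid, and Tspan15 differed by -0.73 and -0.39 (adjusted p = 0.707 and 0.38 for the line in limma). With retinoic acid 3 rose, 1 fell and 23 did not pass. Upk1a, a uroplakin of the bladder lining, rose by log2 2.87 (adjusted p = 0.000529), Tspan12, a coreceptor of Norrin signalling, by 1.57 (adjusted p = 0.00709) and Cd151, a partner of laminin-binding integrins, by 1.07 (adjusted p = 0.0112). Tspan2 fell by 0.87 on the log2 scale (adjusted p = 0.0218). Among 19 genes of RIG-I and MAVS signalling, 0 passed for the line (2 at an unadjusted p under 0.05), and medians were log2 -0.06 and 0.02. Stat2, a transcription factor of the interferon response, differed by -1.18 in undifferentiated cells and -0.30 in retinoic acid, and Oasl2, an interferon-induced gene, by 0.14 and 1.37 (adjusted p = 0.406 and 0.469 in limma). Irf9, an interferon regulatory factor, rose with retinoic acid by log2 0.69 (adjusted p = 0.0457), and its adjusted p lay between 0.0529 and 0.057 without the filter, after quantile normalization and with a floor at log2 6.

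Of 39 other chloride channels and epithelial ion transport genes, 0 passed for the line. An unadjusted p under 0.05 in limma was found for 2 of the 39, beside 9.81% of all genes. At 2-fold in either state there were 0 of the 39 genes, against 2.82% of all genes. Their line differences ran between log2 -0.71 and 0.45 in undifferentiated cells and between -0.73 and 0.52 in retinoic acid. Clic6 differed by -0.37 and -0.65 and the potassium channel gene Kcnq1 by -0.34 and -0.50. Lrrc8b, of the volume-regulated anion channel, rose with retinoic acid by log2 1.28 (adjusted p = 0.00683 in limma) and Clic1 by 1.09 (adjusted p = 0.0104). Of the 10 other ABCC transporters, 0 passed for the line, also at an unadjusted p under 0.05, and 2 fell with retinoic acid in limma. Abcc4, which exports cyclic nucleotides, fell with log2 -1.68 (adjusted p = 0.0285, but 0.0562 with a floor at log2 6). Abcc1, an exporter of glutathione conjugates, fell with -0.84 (adjusted p = 0.029). Abcc2 had line differences of -0.26 and -0.17.

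Among 25 other JmjC-domain genes, 0 passed for the line, and 3 had an unadjusted p under 0.05 in limma, beside 9.81% of all genes. Medians (log2) were 0.08 undifferentiated and -0.01 in retinoic acid. Kdm2a, a histone H3 demethylase at CpG islands, differed by 0.59 and 0.68, and Kdm7a by -0.83 and -0.39 (adjusted p = 0.335 and 0.377). Phf2 rose with retinoic acid by log2 1.16 (adjusted p = 0.0214), and Kdm4c fell by 0.95 (adjusted p = 0.0459, but 0.059 without the filter and 0.0711 with a floor at log2 6). Of 19 genes of TNF and NF-kappaB signalling, 0 passed for the line, and 5 had an unadjusted p under 0.05 in limma, against the same 9.81%. Medians were log2 -0.02 and 0.19. The subunits Rel and Rela were higher in the Ctcfl line by 0.66 and 0.82 in undifferentiated cells and by 0.93 and 0.36 in retinoic acid (adjusted p = 0.252 and 0.387 in limma). Icam1, an adhesion gene that NF-kappaB induces, fell with retinoic acid by 1.24 (adjusted p = 0.0128).

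Of 21 other adhesion G protein-coupled receptors, 0 passed for the line in limma and 4 had an unadjusted p under 0.05, beside 9.81% of all genes. Adgrg2, the receptor of the same subfamily that serves fluid uptake in the male efferent ducts, had log2 signals of 7.66 in the undifferentiated Ctcfl line against 6.60 in wild type, and of 7.56 against 6.50 in retinoic acid. It was the 1 other receptor at least 2-fold higher, in both states (log2 1.05 and 1.06), and it did not pass (adjusted p = 0.129). Adgrb3 was lower by -0.79 and -0.73 (adjusted p = 0.25), from signals of 5.76 and 5.61 in the Ctcfl line that are below log2 6; with a floor there the difference in retinoic acid was -0.34. With retinoic acid Adgra2, which takes part in Wnt7 signalling in brain vessels, rose by log2 1.49 (adjusted p = 0.00434 in limma) and Adgra3 by 0.75 (adjusted p = 0.0412, but 0.0519 without the filter and 0.0549 with a floor at log2 6). Among 13 ligands and signalling partners of Adgrg1, 0 passed for the line or for retinoic acid in limma, 3 at an unadjusted p under 0.05 for the line. The ligand Tgm2, a transglutaminase, was lower in the Ctcfl line by log2 -0.90 and -0.83 (adjusted p = 0.209), and Gnaq was higher by 0.32 and 0.63 (adjusted p = 0.429).

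Of 13 other GABA-A receptor subunits, 0 passed for the line, and 4 had an unadjusted p under 0.05 in limma, beside 9.81% of all genes. Medians (log2) were -0.19 undifferentiated and -0.08 in retinoic acid. Gabrg3, which lies 2 places from Gabra5 on the chromosome, had signals of 6.53 against 6.22 in undifferentiated cells and 7.30 against 6.42 in retinoic acid (Ctcfl line against wild type), a difference of log2 0.30 and 0.89 (adjusted p = 0.413). Gabra3 was higher in the Ctcfl line by 0.20 and 0.93 (adjusted p = 0.461). With retinoic acid Gabra4 fell (log2 -1.25, adjusted p = 0.0179), as did Gabrr1 (log2 -1.08, adjusted p = 0.0292). Among 17 genes of GABA synthesis, transport and receptor anchoring, 0 passed for the line or for retinoic acid in limma, 1 at an unadjusted p under 0.05 for the line. In retinoic acid 1 of the 17 was at least 2-fold higher in the Ctcfl line, against 0.83% of all genes. Gabarapl1, of receptor trafficking and autophagy, differed by log2 -0.91 and -0.40 and Plcl1 by -0.42 and -0.24 (adjusted p = 0.371 and 0.559).

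**Figure D4:**
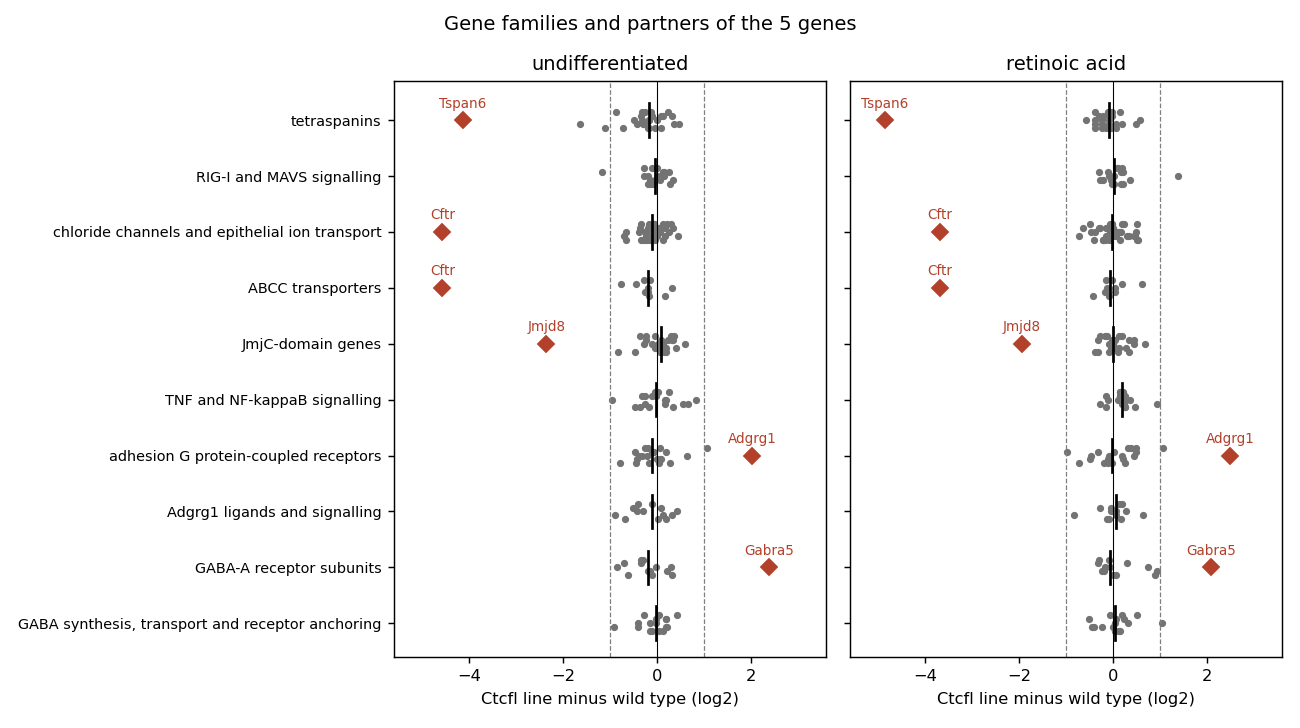
Log2 difference of the Ctcfl line minus wild type (x axes) in undifferentiated cells (left) and retinoic acid (right) for the genes of 10 lists (rows), with each list's median over its other genes as a bar and 2-fold limits as dashed lines. The diamonds mark the 5 genes, which lie outside the spread of their lists, where the other genes run between -1.64 and 1.05 in undifferentiated cells and between -0.98 and 1.37 in retinoic acid.

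The genes next to the 5 on the chromosomes were compared in the order of the RefSeq table, 5 with a value on either side of each. Of the 50 neighbours 42 were past the filter, and 0 of these reached a 2-fold difference in either state, against 2.82% of all genes. Their line differences ran between log2 -0.80 and 0.68 in undifferentiated cells and between -0.62 and 0.89 in retinoic acid. Of the 42, 11 differed in the same direction as the gene they neighbour in both states. They were 0 of 5 at Tspan6, 5 of 8 at Cftr, 1 of 10 at Jmjd8, 3 of 10 at Adgrg1 and 2 of 9 at Gabra5. The share of all genes with such signs was not computed, so nothing is drawn from this count.

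Beside Tspan6 lie Srpx2, whose line differences (log2) were 0.04 undifferentiated and -0.25 in retinoic acid at a distance of 7.21 kb, and Tnmd, which was below the filter. Beside Cftr, Cttnbp2 was lower by -0.54 and -0.62, and by -0.19 and -0.34 with the mean of its probe sets, while Asz1 was below the filter. Wdr24, which lies 0.313 kb from Jmjd8, had line differences of 0.26 and -0.15, and Rhbdl1 on the other side 0.12 and 0.23. Ccdc102a, next to Adgrg1, was higher by 0.50 and 0.34, and Adgrg3, an adhesion receptor 2.905 kb away on the other side, had -0.18 and -0.02. Atp10a, beyond Gabra5, had -0.12 and 0.10. None of the 42 neighbours came within log2 1 of the size of line difference of the gene beside it.

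**Figure D5:**
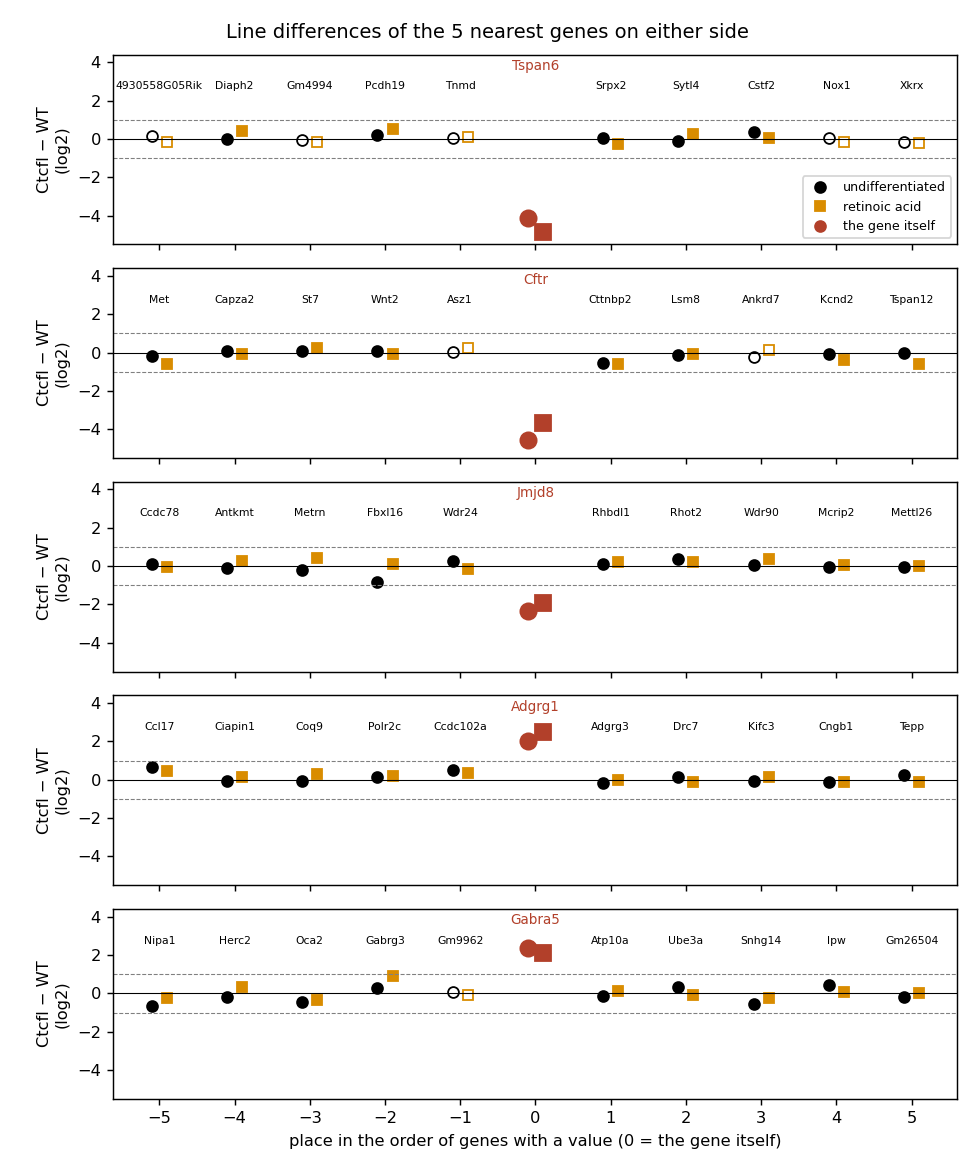
Log2 difference of the Ctcfl line minus wild type (y axes) for each of the 5 genes (large symbols) and the 5 nearest genes with a value on either side, by place in the gene order (x axis), in undifferentiated cells (circles) and retinoic acid (squares); open symbols are genes below the filter. All neighbours lie within the dashed 2-fold limits, between -0.80 and 0.89 for those past the filter.

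Genes with the most similar pattern were ranked by the Euclidean distance over the 4 arrays, after each gene was centred on its own mean. With 4 arrays this mostly reflects the line difference. The nearest genes to Tspan6 were Cftr (distance 1.44, log2), Jmjd8 (2.45) and Hapln1 (3.02), a link protein of the matrix that was lower in the Ctcfl line by -0.69 in undifferentiated cells and -2.60 in retinoic acid. Cftr had Tspan6, Jmjd8 (2.14) and Stmn2 (2.62), a regulator of microtubules in neurons that was lower by -1.64 and -1.46. The nearest to Jmjd8 were Cpq (0.803), Rab6b (0.892) and Maob (0.906), with line differences between -1.20 and -1.49 over both states; with the mean of its probe sets Rab6b had -0.93 and -0.91. Adgrg1 had Grb10 (0.563), Tex16 (0.62) and Gabra5 (0.666). The nearest named gene to Gabra5 was Ctcfl itself (0.436), before Adgrg1 and Trank1 (0.883). Like Ctcfl, Gabra5 was higher in the Ctcfl line in both states and lower with retinoic acid in both lines. So were other genes, Trank1 and Adgrg2 among them. The fall of Gabra5 in wild type (log2 -0.30) was 0.983 times the SD between probe sets of a gene in that comparison.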

How the data were processed

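RNA of 4 P19 cultures was hybridised as biotin-labelled cRNA to 1 Affymetrix gene array each. The deposited values are log2 signals after RMA by the authors, who used Expression Console and Transcriptome Analysis Console per the submitters' processing notes; versions and the genome build are not given in the sources used here. The values were used as deposited, with no further scaling. Of 41345 probe sets 23521 carried 1 gene symbol, 1814 several and 16010 were not annotated here. Of a gene's several probe sets (1082 genes) the one with the highest mean signal was used. Genes needed a log2 signal of at least 6 on 1 array.

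Line and retinoic acid effects were fitted over all 18310 such genes with an additive limma model (limma 3.58.1, R 4.3.3), which leaves 1 residual degree of freedom and takes the interaction as error. The prior had 5.49 degrees of freedom. P-values were adjusted by Benjamini-Hochberg with a threshold of 0.05; they set each effect against the departure from additivity on 4 arrays, not against the spread between cultures. On simulated data for 18310 genes the fit recovered 50% of 2-fold and 99% of 4-fold line effects, with 10.2% of 166 calls false. Whether these rates hold for the 4 arrays, where 2.65% of genes departed from additivity by at least 2-fold, was not tested. Spread within a gene was taken from 874 genes with several probe sets.

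The genes and lists were chosen with earlier results of these data known. Named from each list were genes that passed for the line, up to 4 that passed for retinoic acid with the smallest p, and the 2 with the largest mean line difference. For each of the 5 genes the nearest measured gene on either side, any of its 5 nearest on either side past 2-fold and the 3 most similar genes were named, without predicted genes, clone names and small RNAs. A further part of the rule, on protein identity, was not applied, as no protein table was used here. Signals and differences of the 5 and the named genes were recomputed after quantile normalization, with the mean of probe sets and with a floor at log2 6. Fits and list counts were also repeated without the filter, with one at log2 7 and with a trended prior, and counts past 2-fold with both filters. Distances, ranks, marker means and promoter counts had no alternative; the olfactory receptor limit and AGGGGGC were added after the data had been seen. Python 3.11.15 was used for the rest.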

Additional observations from a re-analysis of the deposited data

Results flagged for a closer look

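Jmjd8 and Adgrg1 had a retinoic acid difference of opposite sign in the lines. Jmjd8 was higher with retinoic acid by log2 0.39 in the Ctcfl line and lower by -0.03 in wild type, a difference of responses of 0.42. The probe set that Jmjd8 shares with Stub1 was higher in both lines, by 0.32 in the Ctcfl line and 0.42 in wild type. Adgrg1 was higher by 0.33 in the Ctcfl line and lower by -0.14 in wild type, a difference of 0.47. Neither was tested, since each value is a difference of 2 single arrays. The wild-type values are 0.0894 and 0.447 times the SD between probe sets of a gene in that comparison. The differences of responses are 1.30 and 1.45 times the SD of theirs.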

How the results depend on the processing

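No paired analysis was possible because each condition had 1 array and the labels give no replicate numbers that pair arrays; for the same reason no replicate could be left out. The line differences of the 5 genes kept their direction after quantile normalization, with the mean of probe sets and with both floors, and so did their retinoic acid differences except that of Cftr in the Ctcfl line, which was 0 with the floor at log2 6. With a floor at log2 6 the Cftr line difference in retinoic acid was -3.44 and its signal in the Ctcfl line 6; with the olfactory receptor limit as floor, chosen after the data had been seen, its line differences were -3.55 in undifferentiated cells and -2.62 in retinoic acid. The line calls, 5 higher and 3 lower, numbered 14 and 9 after quantile normalization, 9 and 6 with a trended prior, and 2 and 1 with the floor at log2 6. The floor left 1 of the 5 genes called, Tspan6, and the other fits called 5. Of the retinoic acid calls in the lists, tetraspanins that fell numbered 2 after quantile normalization, RIG-I and MAVS genes that rose 0 without the filter, after quantile normalization and with the floor, and ABCC transporters that fell 1 with the floor. JmjC-domain genes that fell numbered 0 and adhesion receptors that rose 1, without the filter and with the floor. TNF and NF-kappaB genes that fell numbered 2 after quantile normalization and with a trended prior, and Adgrg1 partners that fell 1 after quantile normalization. The cause was not tested. Among the named genes that are not of the 5, 1368 of the recomputed values kept their side of the threshold or moved by less than the SD between probe sets, though some near 0 changed sign, 11 moved by more, 10 became called and 10 lost their call. Signals near those of olfactory receptor genes limit Tspan6 and Cftr in the Ctcfl line and Gabra5 in wild type, and with 1 array per condition no difference has a replicate error.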
